A study of Oryza sativa with 12 samples.

Results

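Seeds of the transgenic rice lines HFL1 and 35S-15 were compared, both of which are labelled with a high lysine level. The comparison held 3 arrays of HFL1 and 3 arrays of 35S-15, which are 6 of the 12 arrays of the study, and no wild-type array entered it. Signals of the other 6 arrays, 3 of the wild type Wuxiangjiang9, labelled with normal lysine, and 3 of the high-lysine transgenic line GR14, are given for some probe sets as a description. The arrays were chosen by the label that names the rice strain. The 6 samples were developing seeds of field-grown Oryza sativa. The sample labels give their age as 10 days after flowering, while the text on the series gives 15, and the values cannot settle which holds. What the transgenes are, what drives them, and whether each line descends from a single plant is not given in the sources used here, although earlier work on these lines describes HFL1 as combining 35S-15 with a further line of the series, GR14. No probe set could therefore be set aside as a transgene. The labels do not say that the 3 arrays of a line came from separate plants, so the p-values cover the spread among these arrays alone and that spread could be technical.

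Lysine is the essential amino acid in shortest supply in cereal grain. Plants make it from aspartate in the plastid, where the first committed enzyme is inhibited by lysine itself, and break it down through the saccharopine route. Rice endosperm stores most of its nitrogen in glutelins, with a smaller share in prolamins, which hold little lysine. Because both lines carry the same labelled grain trait, the comparison addresses which transcripts set HFL1 apart from a line that shares it.

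Signals are the authors' MAS5 intensities, given here as log2, and a difference of 1 on that scale is 2-fold. Of 57381 probe sets, 28870 were tested. They are those above the median of their array in at least 3 of the 6 arrays, with control and reporter probe sets left out. The median of an array lay between 5.85 and 6.09, and no detection calls were used, so sizes are uncertain wherever a line's mean lies near or below that level. The Spearman correlations between arrays ran from 0.956 to 0.974 within HFL1, from 0.957 to 0.964 within 35S-15 and from 0.942 to 0.971 between the lines. The first principal component held 33.8% of the variance and placed the third 35S-15 array at 79.2 and the first HFL1 array and the third at -45.2 and -54.2, with the others between -6.16 and 32.2. None of the 5 components separated the 3 arrays of one line from those of the other. Markers of the labelled seed tissue were present, since glutelin, prolamin and starch synthesis genes were among the brightest 12 genes with a symbol. Those 12 had log2 folds of HFL1 over 35S-15 from -0.40 for prolamin to 0.04 for MT2C, and GOS2, a translation initiation factor often used as a reference gene, was at -0.20.

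Transcripts that passed the test were few. With limma over all tested probe sets and an adjusted p under 0.05, 2 probe sets differed, or 0.00693%, and both were higher in HFL1. None was lower (0%). Without the third 35S-15 array, which lay farthest out on the first component, 2 were again called. At an unadjusted p under 0.05 there were 1260 (4.36%), where 1444 would be expected if nothing differed, with 649 higher (2.25%) and 611 lower (2.12%) in HFL1. The median log2 fold over all tested probe sets was 0.0051 and the median absolute log2 fold was 0.18, beside a median standard error (SE) of 0.235.

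**Figure D1:**
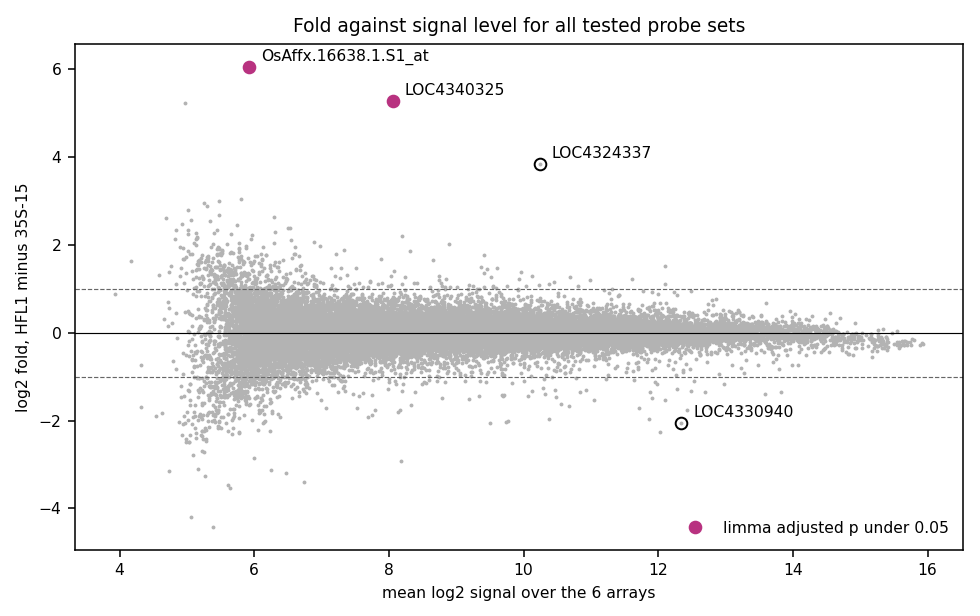
Log2 fold of HFL1 over 35S-15 (vertical axis) against the mean log2 signal of the 6 arrays (horizontal axis) for each of the 28870 tested probe sets, with dashed lines at a log2 fold of 1 and -1. The 2 filled points passed the limma test at an adjusted p under 0.05. The open circles mark LOC4324337 and LOC4330940, which lie outside the cloud and did not pass.

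Most tested probe sets were bright enough to bound the size of a difference. The 95% confidence interval of the log2 fold lay wholly within 1 of zero for 19550 probe sets, or 67.7%. That share was 94.5% of the 9093 probe sets with a mean log2 signal over 10 and 77.4% of the 13131 between 7 and 10. It was 11.9% of the 6646 under 7, where the median SE was 0.478, so for most weakly detected transcripts the interval still held a 2-fold difference at this number of arrays.

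The clearest difference was in LOC4340325, a gene to which the annotation used here attaches no function. Its log2 signal on probe set Os.10266.1.S1_at was 4.87, 5.86 and 5.57 in the 3 arrays of 35S-15. In HFL1 it was 10.63, 10.81 and 10.64. The HFL1 arrays lay close together and far above every 35S-15 array. Each 35S-15 value was below the median of its own array, so the size of the difference is uncertain. The probe set thus met the signal filter through its HFL1 arrays alone. The log2 fold was 5.27 ± 0.27 (SE), with a 95% interval from 4.65 to 5.89 and a limma adjusted p of 0.000429. In the GR14 arrays, which took no part in the fit, the signal was 10.58, 10.87 and 10.77, close to HFL1. In the wild type it was 1.81, 3.86 and 2.42. A second probe set of the same gene, Os.37590.1.S1_at, did not show the difference. It read 7.99, 7.48 and 7.70 in 35S-15, against 7.65, 7.57 and 7.82 in HFL1, with a log2 fold of -0.04 and an interval from -0.57 to 0.48. The probe sets of this gene therefore disagree. The genes directly beside LOC4340325 in the RefSeq table were not tested. Of those a few places away, LOC4340322 had a log2 fold of 0.17, LOC4340324 0.07 and LOC4340327 -0.08, and none passed.

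The other probe set that rose in HFL1, OsAffx.16638.1.S1_at, has no gene in the annotation. Its log2 signal was 2.02, 3.15 and 3.53 in 35S-15, below the array median in each. In HFL1 it was 8.68, 8.92 and 9.27. The log2 fold was 6.05 ± 0.54 (SE), with an interval from 4.83 to 7.28 and a limma adjusted p of 0.0222. Its size is uncertain because the 35S-15 values lie below the median, and it too met the signal filter through its HFL1 arrays alone. The GR14 arrays read 4.91, 4.75 and 4.31 and the wild-type arrays 0.09, 1.92 and 0.30, so the HFL1 arrays were the highest of the 12. This call did not hold with a stricter signal filter (adjusted p 0.151), without an intensity trend (0.0527), in a fit over all 12 arrays (0.16), without the second 35S-15 array (0.0629), or without any 1 of the HFL1 arrays (0.304 to 0.683).

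**Figure D2:**
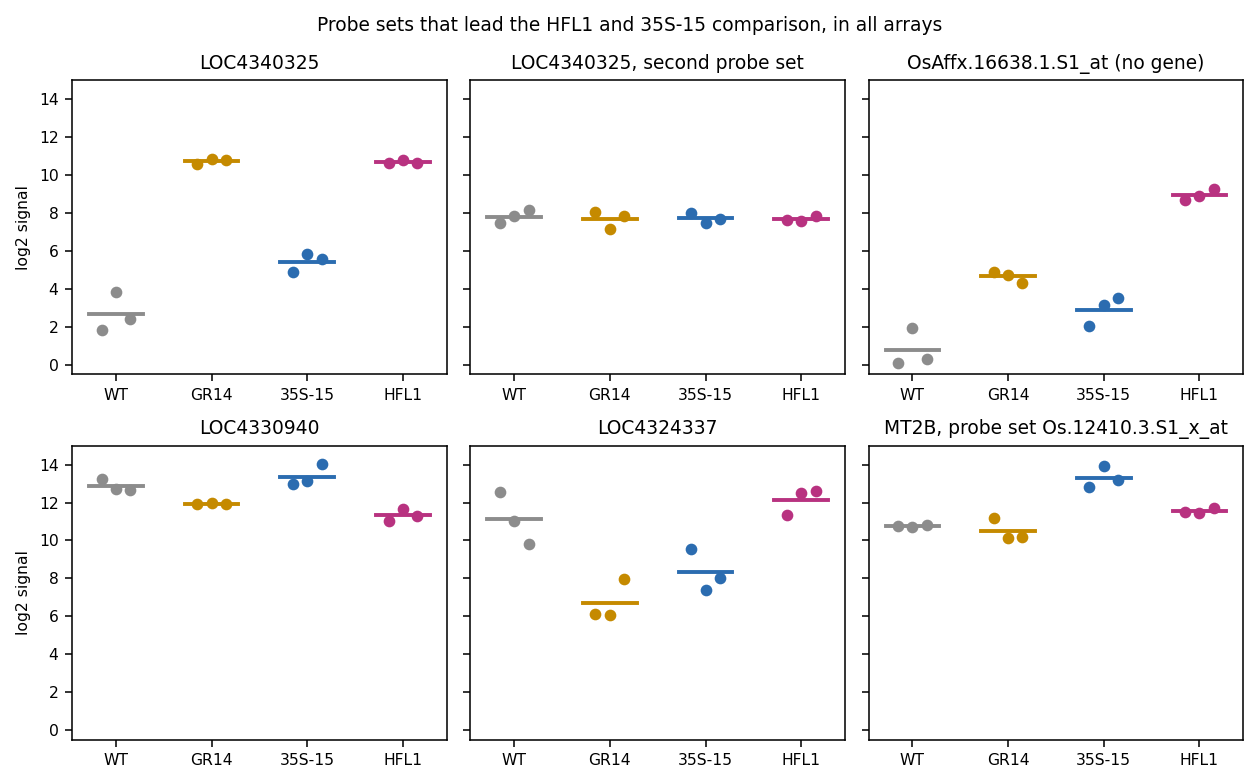
Log2 signal (vertical axis) in each of the 12 arrays, by line, for 6 probe sets that lead the comparison. Points are arrays and bars are the mean of 3 arrays. LOC4340325 is high in HFL1 and GR14 on one probe set and level in all groups on its second, while OsAffx.16638.1.S1_at is highest in HFL1.

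Several transcripts stood apart in their values and did not pass the test over all probe sets. LOC4330940 was read by a pair of probe sets that gave the same log2 fold. On Os.13781.1.S2_at the log2 signal was 12.96, 13.13 and 14.03 in 35S-15, against 11.02, 11.67 and 11.28 in HFL1. The lines did not overlap, and the log2 fold was -2.05 ± 0.28 (SE), with an interval from -2.69 to -1.42 and a limma adjusted p of 0.275. On Os.13781.1.S1_at it was also -2.05, with an SE of 0.32 and an adjusted p of 0.571. The first of these probe sets passed when all 12 arrays shared an estimate of the spread, at an adjusted p of 0.0284. GR14 read 11.92, 12.00 and 11.93 and the wild type 13.24, 12.73 and 12.68 on that probe set.

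LOC4324337 and LOC9270227 were named after their values were seen. LOC4324337 had the largest difference among probe sets with a mean log2 signal over 10. It read 9.55, 7.41 and 8.02 in 35S-15, against 11.34, 12.53 and 12.61 in HFL1, a log2 fold of 3.84 ± 0.52 (SE) with a limma adjusted p of 0.275. The 35S-15 arrays spread over a wider range than the gap to the nearest HFL1 array. Without the first 35S-15 array the log2 fold was 4.45 and the adjusted p 0.0318. This transcript also varied in the wild type, at 12.57, 11.04 and 9.82, and was low in GR14, at 6.11, 6.08 and 7.99. LOC9270227 read 12.91, 12.79 and 12.30 in 35S-15, against 10.92, 11.12 and 11.48 in HFL1, a log2 fold of -1.49 ± 0.20 with an adjusted p of 0.275, but a second probe set of that gene gave -0.17.

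For genes with a symbol, a rule asked for at least 2-fold, no overlap of arrays and an unadjusted p under 0.01. Of 2227 such genes tested, 3 met it with a higher mean in HFL1 and 4 with a lower mean. Over all 28870 tested probe sets, 74 met the same limits. None of the 7 genes passed after adjustment, where all 7 had a limma adjusted p of 0.945 apart from MT2B at 0.352. RR9, listed as OsRR9 and named for the response regulators that carry cytokinin signals, read 8.89, 8.94 and 8.09 in 35S-15, against 9.93, 9.46 and 9.82 in HFL1, a log2 fold of 1.09 ± 0.25 (SE). COPT1, a copper transporter, had a log2 fold of 1.00 ± 0.28. IDI2, a methionine salvage gene first found in iron-starved barley roots, had 1.05 ± 0.29. These 3 were above the array median in both lines. ARP9, named for an actin-related protein, read 6.41, 6.41 and 6.33 in 35S-15, against 4.72, 3.47 and 4.31 in HFL1, a log2 fold of -2.22 ± 0.66 whose size is uncertain because HFL1 lies below that median. ARP9, like MT4C below, met the signal filter through its 35S-15 arrays alone, so its lack of overlap follows largely from the filter.

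Among the metallothioneins, small metal-binding proteins, the sign of the estimated log2 fold differed between genes and between probe sets. MT2B was read on Os.12410.3.S1_x_at at 12.82, 13.94 and 13.19 in 35S-15, against 11.48, 11.43 and 11.73 in HFL1, a log2 fold of -1.77 ± 0.26 (SE). Its other probe sets gave 0.34, 0.25 and 1.32, so the direction depended on the probe set. Probe sets whose names end in _x_at can pick up related transcripts. MT4C read 8.10, 7.80 and 6.93 in 35S-15, against 5.81, 2.34 and 1.39 in HFL1, a log2 fold of -4.42 ± 1.09 whose size is uncertain because all 3 HFL1 arrays lie below the array median. It met the signal filter through its 35S-15 arrays alone, so its lack of overlap follows largely from the filter. MT1A and MT2C had log2 folds of 0.30 and 0.04, and the median of the 7 metallothioneins was 0.04.

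Across the 28870 probe sets, 311 (1.08%) differed at least 2-fold with no overlap of arrays. Of these, 129 were higher (0.447%) and 182 lower (0.63%) in HFL1, and 236 had at least 1 line's mean below the array median. In 75 both lines were above it, 29 of them higher and 46 lower. A probe set kept by the signal filter through the arrays of 1 line alone is nearly bound not to overlap. These counts therefore follow in part from the filter. Of the 6646 probe sets with a mean log2 signal under 7, 3.9% met both limits, against 0.088% of the 9093 over 10. No overlap of arrays regardless of size was seen in 2690 probe sets (9.32%), with 1306 higher (4.52%) and 1384 lower (4.79%). If nothing differed, 3 against 3 arrays would fail to overlap in a share of 0.1, so the share seen is no larger than that. A lack of overlap alone therefore does not mark a gene as different.

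For the 7 genes of lysine and aspartate-family metabolism that could be identified, the estimated differences were under 2-fold. None of the 7 was called, against 1 of 15703 genes with 1 probe set each. For all 7 the 95% interval, which is not adjusted for the number of genes, excluded a 2-fold difference. LYSA, named for diaminopimelate decarboxylase, the enzyme of the last step of lysine synthesis, read 12.18, 12.12 and 11.90 in 35S-15, against 12.13, 11.76 and 12.31 in HFL1. Its log2 fold was 0.00, with an interval from -0.38 to 0.38. DAPB1, a dihydrodipicolinate reductase, read 11.56, 11.44 and 11.55 in 35S-15, against 11.61, 11.28 and 11.71 in HFL1, a log2 fold of 0.02 with an interval from -0.32 to 0.35. For both genes the arrays of the lines overlapped. DAPB2 had a log2 fold of 0.26 (-0.43 to 0.94) and DAPF, diaminopimelate epimerase, had 0.06 (-0.25 to 0.36). The S-adenosylmethionine synthetases, which use methionine of the same family, lay at -0.05 for SAM1, -0.12 for SAM2 and 0.22 for METK3, where the interval ran from -0.14 to 0.57. The list's median was 0.02, beside 0.0164 over all genes. The enzyme that lysine inhibits and the enzymes that break lysine down were not identified by symbol and are not analysed here by name. Whether any gene known only by a LOC identifier encodes one of them was not examined.

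Serotonin is made from tryptophan through tryptamine. TDC2, a tryptophan decarboxylase, read 10.81, 10.21 and 10.24 in 35S-15, against 10.24, 9.90 and 10.08 in HFL1, a log2 fold of -0.35 with an interval from -0.79 to 0.09. T5H, which hydroxylates tryptamine to serotonin, had -0.10 (-0.60 to 0.41). ASMT3, named for the methyltransferase that completes melatonin, read 12.10, 12.16 and 11.80 in 35S-15, against 11.54, 11.78 and 11.06 in HFL1, with no overlap. Its log2 fold was -0.56 (-1.01 to -0.11) with a limma adjusted p of 0.945, while ASMT had 0.05. Of the 10 genes of this list none was called and the median was -0.03.

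**Figure D3:**
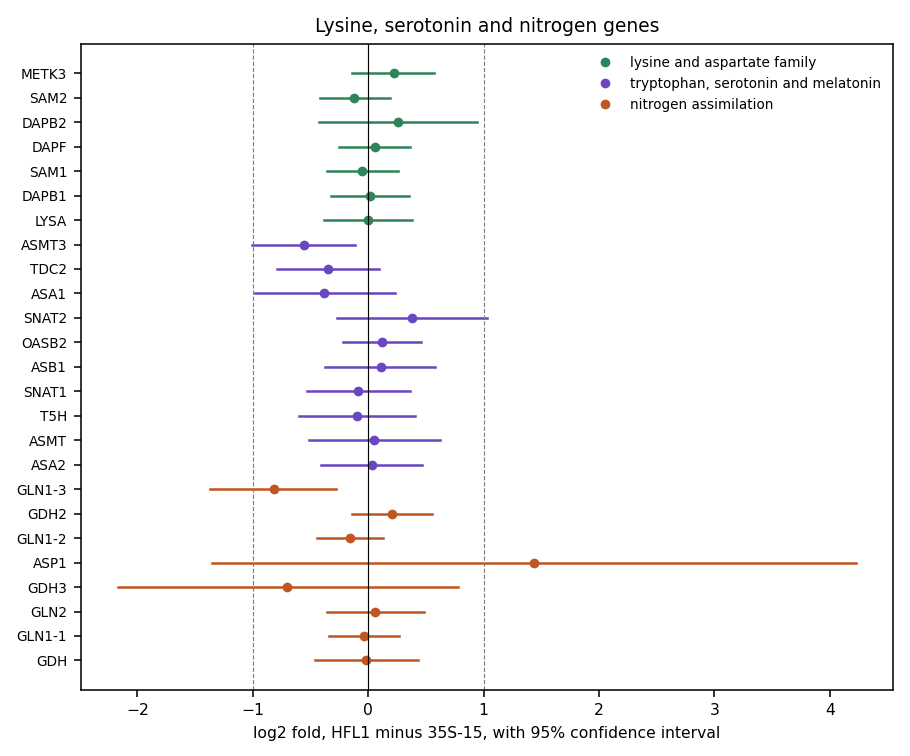
Log2 fold of HFL1 over 35S-15 with 95% confidence interval (horizontal axis) for 7 lysine, 10 serotonin and 8 nitrogen genes, with dashed lines at 2-fold. All 7 lysine intervals lie between the dashed lines, and those of ASP1 and GDH3 among the nitrogen genes are the widest.

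No storage protein or starch gene passed the test. In seeds sampled in bulk, fewer cells of a type and less RNA per cell cannot be told apart. None of the 7 glutelin and globulin genes was called, all 7 had intervals within 2-fold, and the median was -0.15. GLUA-1, a glutelin, read 15.97, 15.84 and 16.36 in 35S-15, against 15.76, 15.98 and 15.64 in HFL1, a log2 fold of -0.26 (-0.65 to 0.13). The 4 prolamins and seed albumins had a median of -0.38 and log2 folds from -0.44 to -0.28. Of the 8 starch synthesis genes, none was called, and on the probe set read for each all 8 had intervals within 2-fold. The median was -0.11, and GBSS-I, the granule-bound synthase that makes amylose, was at -0.14 (-0.52 to 0.23). Other GBSS-I probe sets gave -0.49 (-1.03 to 0.05), -0.60 (-1.23 to 0.03), -0.43 (-0.89 to 0.04) and 0.09 (-0.52 to 0.71). On some of them the interval thus held a 2-fold difference. The third 35S-15 array was the highest of the 6 for GLUA-1, RBE1, prolamin and GBSS-I. Endosperm regulators had a median of 0.09 over 5 genes, with NF-YB1, an endosperm transcription factor, at 0.09.

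Nitrogen assimilation genes gave a median of -0.03 over 8 genes, none called. GLN1-3, a cytosolic glutamine synthetase, read 12.70, 12.73 and 13.20 in 35S-15, against 11.77, 12.59 and 11.79 in HFL1, which did not overlap, a log2 fold of -0.82 ± 0.24 (SE) with a limma adjusted p of 0.945. GLN1-1 was at -0.04 and GLN1-2 at -0.16. In sugar transport and sucrose cleavage, with 23 genes, none called, the median was -0.04. SWEET14, a sugar exporter, was at -0.65 (-1.13 to -0.17) and MST3, a monosaccharide transporter, at 0.54 (0.10 to 0.98), each with a limma adjusted p of 0.945. A second SWEET14 probe set gave -0.40 (-0.93 to 0.13). In the jasmonate list of 27 genes, with a median of 0.13, aoc, allene oxide cyclase, read 11.29, 11.30 and 10.91 in 35S-15, against 11.68, 11.70 and 11.69 in HFL1, a log2 fold of 0.52 ± 0.15. LOX9, a lipoxygenase, was at 0.87 ± 0.34. Neither passed after adjustment, both at an adjusted p of 0.945.

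Across the 20 gene lists, 275 genes were tested and none was called. At an unadjusted p under 0.05 there were 20 (7.27%), against 4.36% of all 15703 genes. The interval excluded 2-fold for 205 of them (74.5%), against 80.1% of all genes. The cytosolic ribosomal proteins had a median of -0.02, all 24 intervals within 2-fold, and RPS21 at -0.18. Photosynthesis genes, which mark the green outer layer of the seed, had a median of 0.03 over 16 genes and 15 intervals within 2-fold. In that list CHLI, a magnesium chelatase subunit, was at 0.84 (0.04 to 1.65) from values near the array median. Circadian clock genes had a median of 0.15 over 6 genes with all 6 intervals within 2-fold, and CCA1, a morning clock factor, was at 0.26. The list named for markers of leaf, anther and root had a median of 0.19 over 6 genes. Those tested were MADS58, IRT1, MADS3, NAS1 and genes listed as MADS2, so the list did not assess leaf tissue. MADS58 was bright in these seeds, with a mean log2 signal of 13.67 in HFL1, and so does not mark another organ here. The glutathione S-transferase and peroxidase list had a median of 0.07, with GSTU6 at 0.66 (0.20 to 1.12). The WRKY factors had a median of 0.01 over 6 genes, with only 2 intervals within 2-fold. The pathogenesis-related list had -0.03 over 12, with 7 intervals within 2-fold.

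**Figure D4:**
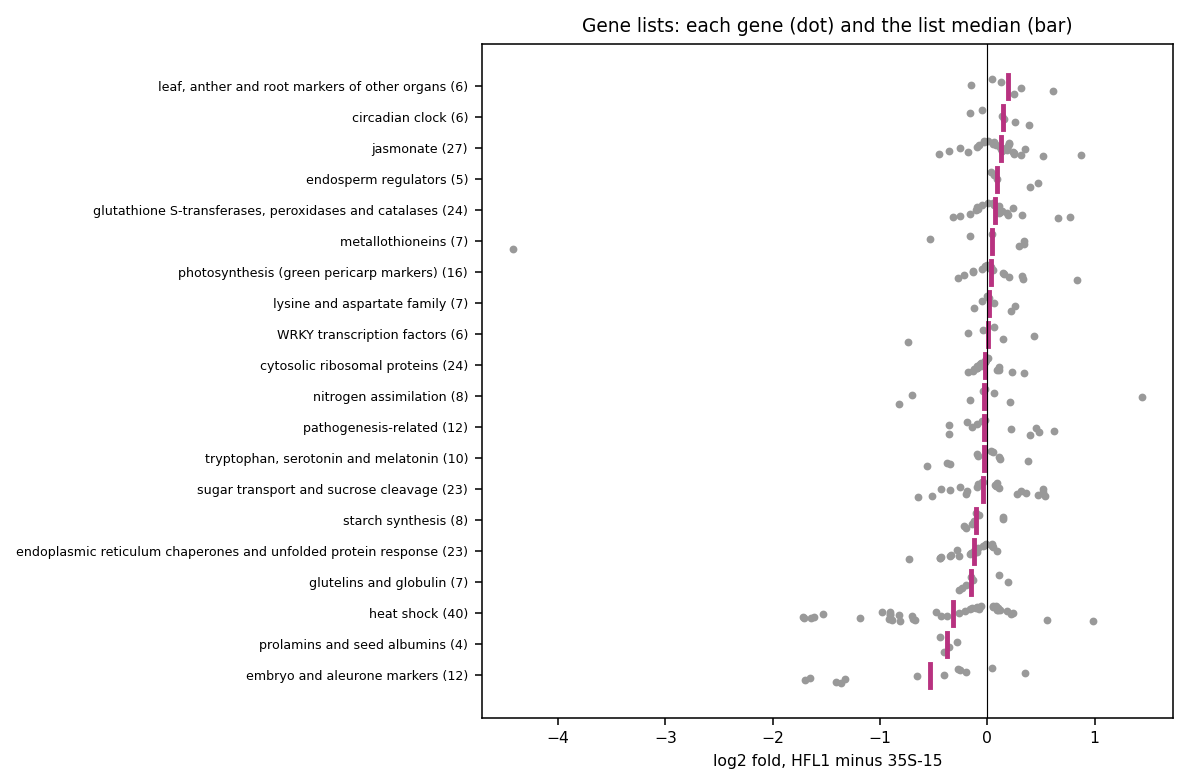
Log2 fold of HFL1 over 35S-15 (horizontal axis) for the genes of 20 lists, with the number tested in brackets. Dots are genes and bars are list medians. The medians run from -0.53 for embryo and aleurone markers to 0.19 for the list named for markers of other organs, and MT4C lies alone at -4.42.

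Embryo and aleurone markers had the lowest median of the lists and varied among arrays of the same line, with a median SD within a line of 0.574 against 0.237 over all genes. Their median log2 fold was -0.53 over 12 genes, of which none was called and 3 had an unadjusted p under 0.05, all lower in HFL1, where 4.36% of all genes had such a p in either direction. The log2 fold was below 0 for 10 of the 12 and above 0 for 2, the amylase gene AMY1.5 at 0.35 and GAMYB, a gibberellin-responsive factor of the aleurone, at 0.04. RAB21, a dehydrin induced by abscisic acid and drought, read 13.86, 13.71 and 14.69 in 35S-15, against 12.20, 13.93 and 11.01 in HFL1. The second HFL1 array lay inside the 35S-15 range, so the lines overlapped, and the log2 fold was -1.70 ± 0.62 (SE). EM, a late embryogenesis protein gene, read 14.55, 14.11 and 14.86 in 35S-15, against 13.31, 14.00 and 12.12 in HFL1, a log2 fold of -1.36 ± 0.41. RAB16B, a further dehydrin, had -1.41 ± 0.47. All 3 had a limma adjusted p of 0.945. They also varied among the wild-type arrays, where RAB21 read 14.11, 14.85 and 10.84. In those arrays EM read 14.51, 14.93 and 12.41, and RAB16B 10.45, 12.22 and 8.55. VP1, the abscisic acid regulator of seed maturation, was at -0.40 (-0.91 to 0.12), and HAZ1 at -0.20. The list's median was -0.77 without the second HFL1 array and -0.33 without the third.

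Heat shock genes also varied within the lines. The 40 tested had a median log2 fold of -0.32, 2 with an unadjusted p under 0.05 and a higher mean in HFL1, 4 with a lower mean, and none called, again beside 4.36% of all genes. One of those with a higher mean, HSF25, with the lowest p of the list and a log2 fold of 0.99 ± 0.17 (SE), shares its RefSeq entry with ARD1, and the probe sets of that entry disagree in direction. HSP24.1, a small heat shock protein, read 9.46, 12.67 and 13.31 in 35S-15, against 8.70, 13.06 and 9.08 in HFL1. HSP18.1 read 9.39, 11.84 and 12.87 in 35S-15, against 8.84, 11.86 and 8.55 in HFL1. HSP17.4 read 11.18, 12.99 and 13.58 in 35S-15, against 9.80, 13.38 and 9.42 in HFL1. Their log2 folds were -1.53 ± 1.24 (SE), -1.62 ± 1.00 and -1.72 ± 0.98, among the lowest of the list. The lines overlapped in each, with the second HFL1 array among the high values and the first 35S-15 array among the low. The median signal of the list was 9.46, 10.46 and 10.48 in the 35S-15 arrays and 9.38, 10.54 and 9.36 in the HFL1 arrays. The SD within a line exceeded 1 for 11 of the 40 genes (27.5%), against 2.38% of all genes, and the median SD was 0.442 against 0.237. For the lysine list the median SD was 0.165. The median log2 fold of the heat shock list was -0.17 without the third 35S-15 array and -0.13 without the third HFL1 array.

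**Figure D5:**
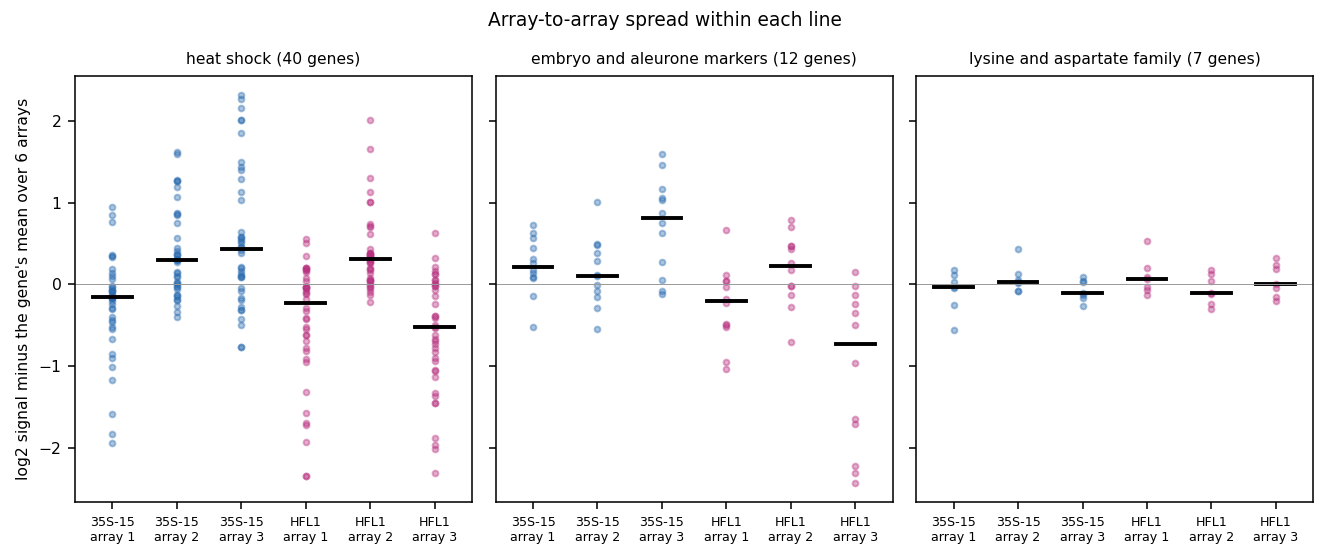
Log2 signal of each gene minus that gene's mean over the 6 arrays (vertical axis), by array, for heat shock genes, embryo and aleurone markers, and lysine and aspartate family genes. Dots are genes and bars are the median over genes. Heat shock genes spread over more than 4 units and differ among arrays of the same line, while lysine genes stay within 1 of their mean.

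None of the 23 genes for endoplasmic reticulum chaperones and the unfolded protein response was called, and their median was -0.12. ERDJ3A, a co-chaperone of the luminal chaperone BiP, read 12.27, 12.36 and 12.93 in 35S-15, against 11.52, 12.48 and 11.35 in HFL1, a log2 fold of -0.73 ± 0.30 (SE) with an adjusted p of 0.945 in limma. BIP1, named for BiP, was at -0.35 (-0.89 to 0.19), and PDIL1-1, a disulfide isomerase that folds storage proteins, at -0.34 (-0.91 to 0.22).

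As a sign of RNA quality, the control transcripts on the array were compared. The gap between the 3 prime and 5 prime probe sets of the GAPDH control was 2.89, 2.95 and 3.30 in 35S-15, against 2.88, 2.56 and 2.35 in HFL1, a difference of -0.45 with no overlap of the lines. The exact two-sided permutation p was 0.1, the smallest that 3 against 3 arrays allow. For actin the gap ran from 3.9 to 4.88 over the arrays of both lines, with a difference of -0.30 (exact permutation p 0.5). For cyclophilin the gap ran from 0.77 to 1.32, with a difference of 0.16 (exact permutation p 0.5). For ubiquitin it ran from -0.12 to 0.04, with a difference of -0.01 (exact permutation p 0.9). The gaps of GAPDH and actin were thus wide in every array compared, while those of cyclophilin and ubiquitin were smaller. The part of RNA quality in the differences above was not tested.

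A pair of transcripts that were low in the wild type had like levels in HFL1 and 35S-15. LOC9268308 on Os.10659.1.S1_at read 6.13, 2.52 and 3.10 in the wild type and 3.51, 3.04 and 3.64 in GR14. It read 9.05, 8.85 and 9.46 in 35S-15, against 9.11, 8.97 and 9.26 in HFL1. The lines overlapped, and the log2 fold was 0.00 (-0.46 to 0.45). Its second probe set gave 0.43 (0.02 to 0.84) with a limma adjusted p of 0.945. LOC4331398 read 4.56, 6.80 and 6.39 in the wild type and 13.73, 13.74 and 13.57 in GR14. It read 13.56, 13.46 and 13.66 in 35S-15, against 13.54, 13.61 and 13.46 in HFL1, a log2 fold of -0.02 (-0.30 to 0.26), and its second probe set gave -0.03. LOC9268308 was thus high in both compared lines and low in GR14, while LOC4340325 on its first probe set was high in HFL1 and GR14 and lower in 35S-15.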

How the data were processed

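Seed RNA was extracted with Trizol, and cRNA labelled from 6 ug of it was hybridised to Affymetrix rice arrays, per the labels' protocols. The deposited intensity values are linear MAS5 signals, per the submitters' processing notes, and the trimmed mean was 500 in every array, so the authors had scaled them. Replicate numbers follow accession order and pair no samples. The log2 signal was used with no further normalization, and 123 AFFX (control) and 64 RPTR (reporter) probe sets did not enter. A model of the 6 arrays was fitted in R 4.3.3 with limma 3.58.1, using lmFit and trended eBayes. Tests were two-sided, p-values were adjusted over 28870 probe sets by Benjamini-Hochberg at 0.05, and the fit was tested on simulated data. Depth has no meaning for arrays, and their number limits the precision. Probe sets were named from the platform annotation, updated through gene identifiers with the RefSeq table of assembly ASM3414082v1. Of 57381 probe sets, 22436 had 1 gene, 95 several and 34850 none, and 2227 of the 15703 tested genes had an informative symbol. No coordinates or sequences are given because no genome was used here. A gene in a list was read on its probe set with the highest mean.

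The lists, the genes and the naming rules were chosen with earlier results of these data known. Named were all probe sets that passed, up to 12 with a symbol in each direction that differed at least 2-fold without overlap and with an unadjusted p under 0.01, the 3 of lowest p in each list, the brightest 12, and the lysine, TDC, T5H and ASMT genes with 4 LOC genes. Other genes were added as examples after their values were seen. List patterns that caught unrelated symbols were trimmed by name alone. Lists were not tested. The alternatives were quantile normalization, median centring, other filters, log2(signal + 50), other estimates of the spread, fits with 9 or 12 arrays, other probe set choices and thresholds, and leaving out each array.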

Additional observations from a re-analysis of the deposited data

How the results depend on the processing

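LOC4340325 passed in every setting, with log2 folds from 4.18 to 5.48, apart from its second probe set, which gave -0.04 against 5.27. The number of probe sets called was 2 in the main setting. It was 1, the LOC4340325 probe set, with a 70th percentile filter, with no intensity trend and with 1 probe set per gene. The fit over 12 arrays called 1 higher and 1 lower, LOC4330940. Leaving out each array in turn gave 1 to 3 calls, with 1 without the second 35S-15 array or any HFL1 array, and 3 without the first 35S-15 array. OsAffx.16638.1.S1_at kept a log2 fold of 6.05 but did not pass with the 70th percentile filter, with no intensity trend or in the 12-array fit, and had 3.24 with log2(signal + 50) and 5.61 to 6.37 when 1 array was left out. The count at an unadjusted p under 0.05 ran from 744 to 2390 when 1 array was left out, and was 2676 with no filter, 768 with the 70th percentile filter and 1988 with array weights. The share of probe sets whose interval excluded 2-fold was 34.3% with no filter, 89.3% with the 70th percentile filter and 58.9% to 64.7% with 1 array left out. With log2(signal + 50) the interval lay within 1 of zero for 86.7%. That offset shrinks the folds, so this share does not exclude a 2-fold difference in signal and is not comparable with the others. No list gene was called in any setting. The list medians that moved by more than the SD of the list's median signal among arrays of a line were 0.14 for lysine without the second HFL1 array, 0.23 for the clock with median centring and 0.07 without the second 35S-15 array, and 0.24 for metallothioneins with quantile normalization. Leaving out 1 array moved the median of embryo and aleurone markers between -0.77 and -0.33 and that of heat shock genes between -0.44 and -0.13, all within that SD. The median log2 fold of all probe sets was 0.085 with median centring, against 0.0051 in the main setting. The cause of these shifts was not tested. No paired analysis was possible because the labels give no replicate numbers.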

Other observations

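These values were picked out after they were seen and, apart from ARD1, belong to no gene list. LOC4332796 and LOC4332797 stand next to each other in the RefSeq table. On its brighter probe set LOC4332796 read 11.24, 11.47 and 11.63 in 35S-15, against 12.12, 12.46 and 12.57 in HFL1, a log2 fold of 0.93 ± 0.17 (SE) with a limma adjusted p of 0.874, and its other probe set gave 1.00. LOC4332797 read 11.58, 11.82 and 11.91 in 35S-15, against 12.33, 12.67 and 13.12 in HFL1, a log2 fold of 0.93 ± 0.20 with an adjusted p of 0.945. Of the further neighbours of LOC4332796 tested here, LOC4332795 was at -0.43 and LOC4332799 at 0.09.

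ARD1, named for the acireductone dioxygenase of methionine salvage, shares its RefSeq entry with heat shock factor names and so also counts in the heat shock list. It read 9.46, 9.65 and 9.15 in 35S-15, against 10.42, 10.27 and 10.55 in HFL1 on Os.4766.1.S1_at, a log2 fold of 0.99 ± 0.17 with a limma adjusted p of 0.874. A second probe set of that entry gave -1.09, so its probe sets disagree in direction.

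Probe sets of the Os.6227 cluster, which have no gene in the annotation, had log2 folds of -3.19, -3.41 and -4.20. Their sizes are uncertain because the HFL1 means, 4.87, 5.03 and 2.96, lie below the array median. Apart from Os.6227.2.S1_at, they met the signal filter through their 35S-15 arrays alone. Os.6227.2.S1_at read 8.32, 8.68 and 8.32 in 35S-15, against 5.32, 6.66 and 3.12 in HFL1, with 3.22, 6.75 and 2.64 in the wild type and 3.10, 6.20 and 3.89 in GR14. The adjusted p was 0.92 to 0.945 for the cluster. LOC9268613 had log2 folds of -1.42 and -3.47 on its probe sets, and the unnamed Os.20614.4.S1_x_at had -3.12. The sizes of -3.47 and -3.12 are uncertain, since the HFL1 means of 3.88 and 4.69 lie below the array median. Both of these probe sets met the signal filter through their 35S-15 arrays alone. A further probe set of the Os.20614 cluster, which reads LOC9267767, gave 0.07. On Os.20614.1.S1_at, LOC9268613 read 8.23, 8.75 and 8.41 in 35S-15, against 7.17, 6.64 and 7.33 in HFL1. The GR14 arrays read 9.24, 9.30 and 9.47 there, and the wild-type arrays 6.07, 6.12 and 6.42.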
